A study of Mus musculus with 46 samples.

Results

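A domain boundary is a position at which one topologically associating domain (TAD), a stretch of chromatin that contacts itself more often than its surroundings, ends and the next begins. In mouse liver, TADs called in bins of 10 kb gave 5933 boundary positions on a lipid-rich diet (LD) and 5797 on a carbohydrate-rich diet (CD). Of the 7901 distinct positions, 3829 were a domain start or end at exactly the same coordinate in both lists, and these identical boundaries are described here. They made up 64.5% of the LD list and 66.0% of the CD list. They were selected on the Hi-C calls, so that values from Hi-C, promoter capture included, are given without a test, as a description. Tests rest on expression and ChIP-seq, which, like sequence, took no part in the choice.

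The livers came from male C57BL/6 mice kept for up to 20 weeks on either purified diet. Lipid supplied 60% of the calories of the LD and 10% of those of the CD, carbohydrate 20% and 70%, and protein 20% in either. RNA-seq was done on 5 mice per diet, ChIP-seq of the histone mark H3K27ac on 3, ChIP-seq of the liver transcription factors Hnf4α and C/EBPα on 2 each, and Hi-C on 2. The domain lists were called on the 2 Hi-C libraries of a diet summed together, so that a boundary carries no replicate error of its own. All samples were whole liver. Hepatocyte transcripts led the RNA, with albumin (Alb) at 55330 to 67152 TPM (transcript abundance scaled to a fixed total per library), and the Kupffer cell gene Clec4f lay at 64.1 to 200.5 TPM. Cholangiocyte, lymphocyte and adipocyte markers were all under 4 TPM, and the fat droplet gene Plin1 was listed at 0 in every mouse. In whole tissue, fewer cells of a type and less RNA per cell cannot be told apart. RNA libraries held 31707963 to 39012699 counted read pairs.

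In mammals, most boundaries are thought to form where cohesin, a ring that extrudes loops of chromatin, is stopped by CTCF, a zinc finger protein that binds a directional motif. Boundaries are also known for active promoters, above all those of genes that every cell uses. H3K27ac marks active promoters and enhancers, and Hnf4α and C/EBPα bind the enhancers of hepatocytes, so that their peaks show where the regulatory DNA of liver lies relative to the boundary.

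Identical boundaries lay 360 kb apart at the median, with 40 kb as the smallest and 11380 kb as the largest spacing. Both the end of one domain and the start of the next were called at 3804 of the 3829 in both lists, and the other 25 lacked a start or an end in a list. Just outside the rule were 911 LD and 911 CD boundaries that had a boundary of the other diet within 10 kb but not at the same coordinate. A further 723 LD and 589 CD boundaries lay over 20 kb from every boundary of the other diet. The separation score, in which a lower value marks a deeper drop of contacts across a position, at identical boundaries was -0.28 (LD) and -0.26 (CD) at the median. The boundaries that missed by 10 kb had medians of -0.30 and -0.28, and those over 20 kb away had -0.18 and -0.16. The score at an identical boundary was nearly the same on both diets (Pearson r = 0.986 over 3817 boundaries with a score, which come from the same genome and from libraries scored in the same bins), and it was lower on LD at 67.5% of them.

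The sequences that recur at identical boundaries are shown first. The 12 base core consensus of CTCF was searched on both strands of the mm9 genome, and a match is a description of sequence, not a measured site. At the boundary at position 95570000 of chromosome 16, with no TSS within 20 kb, the minus strand match lay 2.31 kb to the left and the plus strand match 2.26 kb to the right. They formed a divergent pair, a match pointing into the domain on each side, and are printed 5′ to 3′ on the strand of the match, with the consensus in capitals.
chr16:95567667-95567718 (mm9, minus strand): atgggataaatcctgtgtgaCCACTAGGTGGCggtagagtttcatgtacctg
chr16:95572244-95572295 (mm9, plus strand): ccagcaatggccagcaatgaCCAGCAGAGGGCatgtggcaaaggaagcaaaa

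Of the boundaries with the most highly expressed genes or the lowest separation score, 4 held a match, and 3 are shown with their nearest one. The other held 2 and is not shown here. The match on chromosome 17 lay in an intron of Nelfe (Rdbp in the annotation), 12.9 kb to the right of its boundary. The match on chromosome 11 lay in an intron of Dvl2, a Wnt signalling gene, 5.58 kb to the right of its boundary. The match on chromosome 10 lay between genes, in a window with the olfactory receptor genes Olfr9 and Olfr763, at -0.526 kb from its boundary.
chr17:34992908-34992959 (mm9, plus strand): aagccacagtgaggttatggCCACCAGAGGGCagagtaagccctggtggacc
chr11:69815560-69815611 (mm9, plus strand): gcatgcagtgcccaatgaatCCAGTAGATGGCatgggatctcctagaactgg
chr10:128444454-128444505 (mm9, minus strand): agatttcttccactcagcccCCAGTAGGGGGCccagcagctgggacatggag

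Factor peaks near the boundaries are shown by a pair of examples each from the 3 highest, taken outside annotated exons and each called in all 4 libraries of its factor and holding the factor's short motif, given in capitals. The letters CAAAGTCCA for Hnf4α and TTGCGCAA for C/EBPα were searched on both strands in the central 200 bp. The first Hnf4α site lay between genes, and the second in an intron of Ppp1r3g, which encodes a glycogen-targeting subunit of a phosphatase. The first C/EBPα site lay 2.81 kb from the TSS of Sgca, and the second 0.116 kb from that of Orm2, which encodes an acute-phase plasma protein.
Hnf4α, chr19:36869981-36870029 (mm9, minus strand): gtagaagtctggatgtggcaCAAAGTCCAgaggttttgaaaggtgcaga
Hnf4α, chr13:36051603-36051651 (mm9, minus strand): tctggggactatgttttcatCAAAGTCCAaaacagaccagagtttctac
C/EBPα, chr11:94840426-94840473 (mm9, plus strand): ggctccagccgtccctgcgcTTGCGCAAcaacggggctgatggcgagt
C/EBPα, chr4:63023343-63023390 (mm9, plus strand): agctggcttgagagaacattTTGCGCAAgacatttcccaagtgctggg

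CTCF consensus matches were concentrated at identical boundaries and pointed away from them. Within 20 kb of the boundary, 41.1% (95% Wilson interval 39.5 to 42.7) held at least 1 match, against 19.0% (18.1 to 19.8) of the 7658 positions 100 kb to either side and 16.2% of all 65963 windows of 40 kb along the analysed chromosomes. Counted as matches, the windows held 0.564 per boundary and 0.230 per position 100 kb away, a ratio of 2.45 (interval 2.30 to 2.61, counting error only). With a looser consensus, which 93.0% of the boundaries and 84.9% of the positions 100 kb away held, the ratio was 1.35. The boundary density was the higher on 20 of 20 chromosomes. To the left of the boundary, 770 matches lay on the minus strand and 318 on the plus strand, and to the right, 719 lay on the plus strand and 352 on the minus strand. In all, 69.0% (67.0 to 70.9) of 2159 matches pointed into the domain on their own side, against 49.97% (47.6 to 52.3) around the positions 100 kb away. A divergent pair stood at 143 identical boundaries and a convergent pair at 29, whereas the 7658 positions 100 kb away had 36 and 31. Binding of CTCF itself was not analysed here.

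**Figure D1:**
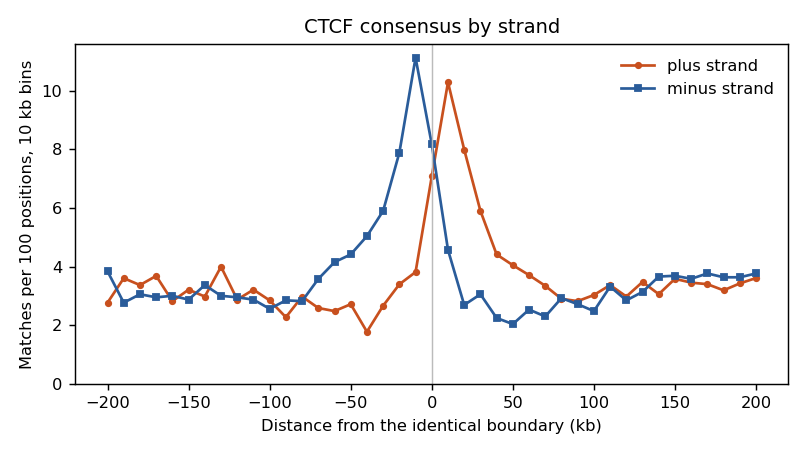
Matches to the CTCF consensus per 100 identical boundaries in bins of 10 kb (vertical axis) against the distance from the boundary in kb (horizontal axis), for the plus strand (circles) and the minus strand (squares) of the genome. The minus strand reached 11.1 at 10 kb to the left and the plus strand 10.3 at 10 kb to the right, against about 3 per 100 on either strand at 100 kb.

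Genes started at identical boundaries more often than 100 kb away. A TSS of a RefSeq gene lay within 20 kb of 1834 boundaries, or 47.9% (46.3 to 49.5), against 38.5% (37.4 to 39.6) of the positions 100 kb away. The density was 0.776 TSS per boundary and 0.560 per position 100 kb away, a ratio of 1.39 (1.32 to 1.45, counting error only), and it was higher at the boundary on 20 of 20 chromosomes. The excess was narrow. The 10 kb bin centred on the boundary held 26.1 TSS per 100 boundaries, the neighbouring bins 17.6 on the left and 18.5 on the right, and the bins at 100 kb 14.0 and 14.7. Windows with 3 or more TSS made up 6.19% of the boundaries and 3.84% of the comparison positions. Of the TSS within 20 kb, 51.5% (49.7 to 53.3) were of genes transcribed away from the boundary and 48.9% (47.4 to 50.4) around the positions 100 kb away, so that genes had no orientation of the size seen for CTCF matches. TSS and CTCF matches shared a window at 783 boundaries, 1051 had a TSS only, 790 a CTCF match only, and 1205 had neither. The bases differed little in composition, with 44.2% G or C at the boundaries, 43.8% at the positions 100 kb away and 41.8% over the genome.

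Highly expressed genes, those above 10 TPM in all 10 mice, also started at identical boundaries more often than 100 kb away, at a ratio of 1.499 (1.37 to 1.64), whose interval overlapped that of all TSS. Of 5453 such genes, 855 started within 20 kb of an identical boundary, at 696 boundaries (18.2%, 17.0 to 19.4), and 12.8% (12.1 to 13.6) of the positions 100 kb away had one. Their density was higher at the boundary on 19 of 20 chromosomes, and on chromosome 19 it was 21.7 per 100 boundaries against 25.4 per 100 positions 100 kb away. The central 10 kb bin held 8.96 per 100 boundaries, against 3.63 and 3.66 in the bins at 100 kb. Taking each mouse by its own genes above 10 TPM, the LD mice had 25.8, 25.4, 25.7, 25.2 and 27.4 genes per 100 boundaries and 17.2, 17.1, 17.0, 16.8 and 18.1 per 100 positions 100 kb away. The CD mice had 24.0, 25.1, 25.3, 25.6 and 25.3 at the boundaries and 16.3, 17.2, 17.0, 17.2 and 17.0 at 100 kb. The boundary and comparison values did not overlap, and the boundary was higher in 10 of 10 mice, by 8.41 ± 0.41 genes per 100 positions (SD, n = 10; exact sign-flip permutation test, two-sided, p = 0.00195, the smallest that 10 mice allow; adjusted p = 0.0312 over the 16 comparisons with positions 100 kb away). All mice and libraries share the same boundary positions, so that such p-values measure only how steady a difference was over libraries. The share of genes with a TSS within 20 kb of an identical boundary was 7.43% among the 7077 genes at 0 TPM in every mouse, 11.4% at a mean of up to 1 TPM, 14.0% at 1 to 10 TPM, 15.7% at 10 to 100 TPM and 14.9% above 100 TPM. Around the positions 100 kb away, the shares per side were 4.84%, 8.29%, 9.65%, 9.73% and 9.97% in the same order, so that they were lowest for genes at 0 TPM there too.

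**Figure D2:**
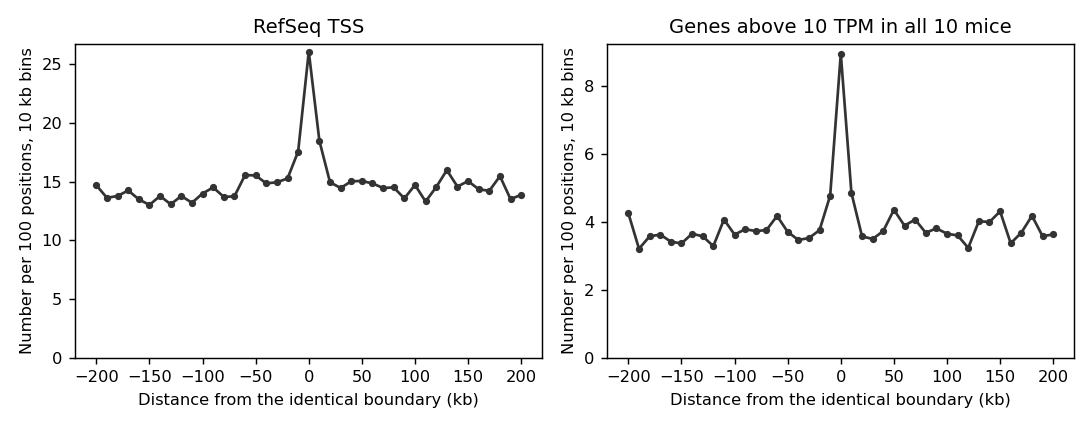
TSS of RefSeq genes (left) and of genes above 10 TPM in all 10 mice (right) per 100 identical boundaries in bins of 10 kb, against the distance from the boundary in kb. The central bin held 26.1 TSS and 8.96 highly expressed genes per 100 boundaries, against 14.0 and 3.63 in the bin 100 kb to the left.

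Which highly expressed genes stood at identical boundaries differed between the gene lists, taken from their roles in every cell or in hepatocytes. Of all 5453 genes above 10 TPM, 15.7% (14.7 to 16.7) started within 20 kb of an identical boundary, which is the value to read each list against. Cytosolic ribosomal proteins, the protein part of the ribosome, had 23 of 78 (29.5%, 20.5 to 40.4), proteasome subunits 10 of 37 (27.03%, 15.4 to 43.0) and mitochondrial ribosomal proteins 18 of 75 (24.0%, 15.8 to 34.8). Respiratory chain subunits had 13 of 74 (17.6%, 10.6 to 27.8) and tRNA synthetases 3 of 24 (12.5%, 4.34 to 31). Liver-secreted plasma proteins had 6 of 86 (6.98%, 3.24 to 14.4) and cytochrome P450 enzymes 2 of 40 (5%, 1.38 to 16.5). Fatty acid oxidation genes had 6 of 26 (23.1%, 11.03 to 42.05), cholesterol synthesis genes 2 of 21 (9.52%, 2.65 to 28.9) and de novo lipogenesis genes 0 of 12 (interval up to 24.2%). The interval of the cytosolic ribosomal proteins lay above the value for all highly expressed genes and that of the plasma proteins below it. The interval of the mitochondrial ribosomal proteins began at 15.8, next to that value, and those of the other lists included it. Genes of a list can lie next to each other, and these intervals cover counting error only.

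**Figure D3:**
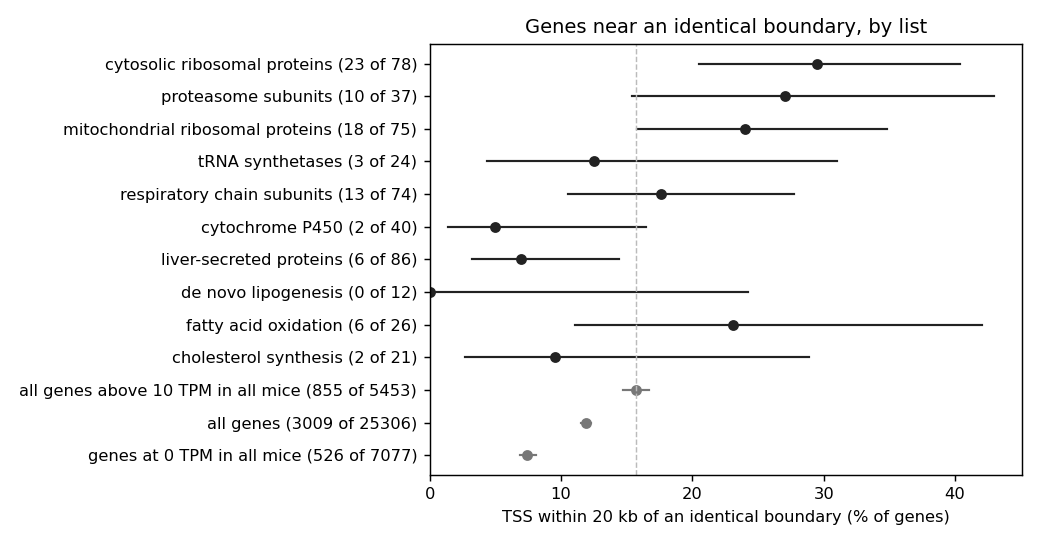
Share of the genes above 10 TPM in all mice of each list with a TSS within 20 kb of an identical boundary (point, in percent) with its 95% Wilson interval (line). The dashed line marks the 15.7% of all genes above 10 TPM, and the last 2 rows give all 25306 genes and the 7077 genes at 0 TPM in every mouse. Cytosolic ribosomal proteins lay at 29.5% and liver-secreted proteins at 6.98%.

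The 10 most abundant transcripts with a TSS at an identical boundary were mostly hepatocyte genes with no call between the diets. Of these, 9 are described. Carbonic anhydrase 3 (Car3) was at 5364 ± 883 TPM on LD and 4158 ± 768 on CD (mean ± SD, n = 5), and Ambp, the precursor of the plasma proteins α1-microglobulin and bikunin, at 2976 ± 175 and 2895 ± 76.6. Bhmt, which remethylates homocysteine, was at 2690 ± 628 and 2261 ± 164 TPM, and the gluconeogenic enzyme Fbp1 at 2062 ± 88.0 and 1931 ± 89.3. Wfdc21 followed at 1741 ± 478 and 2044 ± 118 TPM. Rpl41, a ribosomal protein, was at 1097 ± 76.5 and 1153 ± 83.1 TPM, and Cox4i1, a subunit of cytochrome c oxidase, at 1125 ± 33.0 and 1077 ± 40.6 with its TSS 2.12 kb from the boundary. The lipid transfer protein Stard10 was at 1099 ± 69.2 and 1045 ± 44.4 TPM, and the ornithine aminotransferase Oat at 1117 ± 377 and 1024 ± 252. None of the 9 passed edgeR's test at the fold change of 1.2 and the adjusted p-value of 0.05 used for a call. Car3 was called higher on LD without CD replicate 3 (edgeR adjusted p = 0.0406), and Wfdc21 was called higher on CD with the replicate block (edgeR adjusted p = 0.0476).

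H3K27ac lay differently from the genes. Peaks covered less of the DNA within 20 kb of an identical boundary than of the DNA 100 kb away, while nearly as many windows held a peak. On LD, peaks covered 8.78%, 8.95% and 8.47% of the bases at the boundaries and 12.3%, 12.6% and 11.8% of those 100 kb away. On CD they covered 7.97%, 8.16% and 7.85% against 11.3%, 11.5% and 11.2%. The 6 libraries did not overlap between the positions, and coverage at the boundary was lower in 6 of 6, by 3.43 ± 0.14 percentage points (SD, n = 6; exact sign-flip permutation test, two-sided, p = 0.0312, the smallest that 6 libraries allow; adjusted p = 0.0625 over 16 comparisons). The share of positions with any peak was 57.2% ± 1.7 at the boundaries and 58.4% ± 2.0 at 100 kb, lower in 6 of 6 libraries by 1.11 ± 0.32 percentage points (exact p = 0.0312), and this small difference changed sign with the comparison distance: it was 2.55 points higher at the boundary than 200 kb away. Coverage at the boundary stayed the lower with positions 200 kb away, by 1.4 points in the mean.

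The profile of H3K27ac had a trough with a spike in it. On LD, mean coverage was 12.7% and 12.2% at 100 kb to the left and right, 8.03% and 8.37% at 10 kb, and 10.4% in the bin on the boundary. On CD it was 11.7% and 11.3% at 100 kb, 7.34% and 7.52% at 10 kb, and 9.69% on the boundary. Beyond 100 kb it fell again, to 10.3% and 10.5% at 200 kb on LD. Windows were then split by whether they held a TSS, a split made after the data were seen. Among the 1995 boundaries without a TSS, 35.8% ± 2.6 had a peak, against 45.2% ± 2.2 of the 4712 comparison positions without a TSS, lower in 6 of 6 libraries by 9.34 ± 0.49 points (exact p = 0.0312, adjusted p = 0.0625). Among the windows with a TSS, 80.5% ± 0.9 of the boundaries and 79.4% ± 1.5 of the comparison positions had a peak, higher at the boundary in 6 of 6 libraries by 1.11 ± 0.65 points (exact p = 0.0312), but peaks covered 12.9% ± 0.6 of the bases against 18.2% ± 0.8. A peak in all 6 libraries was found at 1934 boundaries and none in any library at 1367.

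Hnf4α peaks were fewer around identical boundaries than 100 kb away, as H3K27ac coverage was lower, and C/EBPα peaks showed this less clearly. The 2 LD libraries had 105.5 and 99.8 Hnf4α peaks per 100 boundaries and 130.9 and 125.3 per 100 positions 100 kb away. The 2 CD libraries had 78.1 and 109.3 at the boundaries and 99.2 and 136.1 at 100 kb, and CD replicate 1, with 35120 peaks against 44218 to 47952, was the lowest of the 4 at both. Hnf4α peaks were fewer at the boundary in 4 of 4 libraries, by 24.7 ± 2.4 per 100 positions (exact sign-flip permutation test, two-sided, p = 0.125, the smallest that 4 libraries allow). The difference was -15.3 with the comparison at 50 kb and -9.64 at 200 kb. C/EBPα had 87.2 and 89.2 peaks per 100 boundaries on LD and 100.8 and 106.2 on CD, against 102.9 and 104.9 on LD and 106.7 and 111.0 on CD at 100 kb, fewer in 4 of 4 by 10.5 ± 6.0 (exact p = 0.125). The C/EBPα difference was -5.18 with the comparison at 50 kb and -0.504 at 200 kb, in peaks per 100 positions, and -1.68 within 10 kb of the positions (exact p = 0.375). On CD, C/EBPα peaks were densest in the bin on the boundary, at 28.8 per 100 boundaries. The share of positions with a C/EBPα peak was lower at the boundary in the 2 LD libraries and higher in the 2 CD libraries (exact p = 0.5). Over all peaks, the difference in share was -0.793 points for C/EBPα and -1.90 for Hnf4α, and -0.0849 for Hnf4α with the comparison at 50 kb. With only the 10000 highest peaks of each library, the difference in share was -3.58 points for C/EBPα and -5.80 for Hnf4α, lower in 4 of 4 libraries each (exact p = 0.125). All 3 ChIP targets were present in every library at 792 boundaries (20.7%, 19.4 to 22.0) and at 26.0% of the positions 100 kb away.

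**Figure D4:**
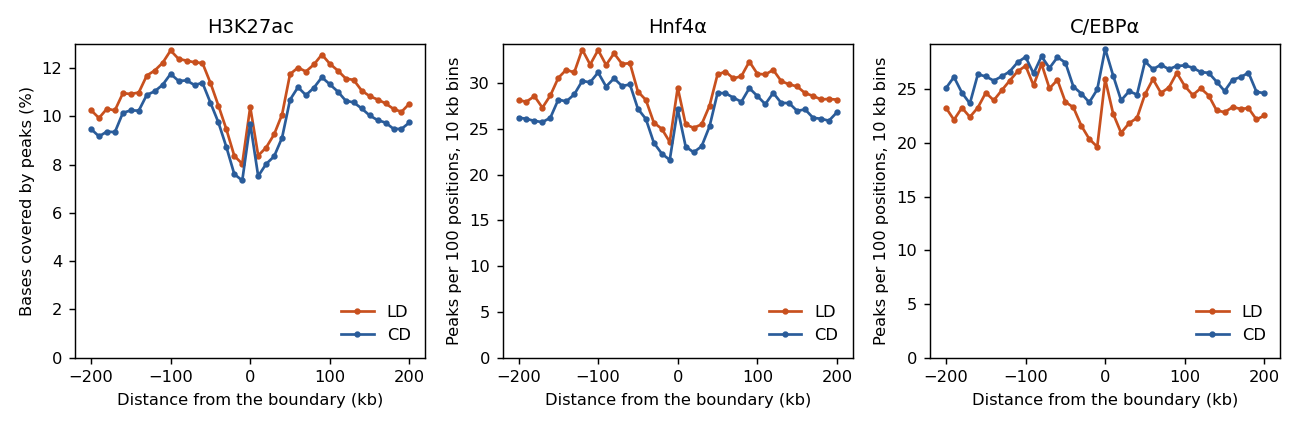
Share of bases covered by H3K27ac peaks (left, percent) and number of Hnf4α (middle) and C/EBPα (right) peaks per 100 identical boundaries, in bins of 10 kb against the distance from the boundary in kb, as means over the libraries of LD and of CD. H3K27ac coverage on LD was 8.03% at 10 kb to the left, 10.4% on the boundary and 12.7% at 100 kb to the left, and both factors had a trough around a central spike.

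Height and motif of the factor peaks at the boundaries were set beside those of other peaks. The median height of Hnf4α peaks, in tags scaled to a common library size, was 18.2, 19.0, 14.5 and 19.8 at the boundaries and 19.2, 19.8, 15.5 and 21.8 elsewhere in LD replicates 1 and 2 and CD replicates 1 and 2, lower at the boundaries in 4 of 4. For C/EBPα it was 12, 12.5, 13.5 and 9 at the boundaries and 11.5, 12.5, 13 and 8.5 elsewhere. Of the Hnf4α loci in all 4 libraries, 134 of 1895 at boundaries (7.07%, 6.00 to 8.31) and 6.43% of all 23330 held CAAAGTCCA in the central 200 bp. For C/EBPα, 46 of 1274 loci at boundaries (3.61%, 2.72 to 4.78) and 2.66% of all 13802 held TTGCGCAA, a share just under the interval at the boundaries. The printed Hnf4α site on chromosome 13 lay 1.62 kb from its boundary, with heights of 164.8, 165.8, 109.5 and 285.2 in the same order of libraries. The printed C/EBPα site at Orm2 had heights of 76.0 and 74.0 on LD and 174.0 and 113.5 on CD. The order was not particular to Orm2, as the printed site near Sgca had 82.0 and 84.0 on LD and 172.0 and 114.0 on CD.

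Boundaries found on one diet only had fewer of all these features. Of the 4064 one-diet boundaries on the analysed chromosomes, 40.03% (38.5 to 41.5) had a TSS within 20 kb, 31.8% (30.4 to 33.2) a CTCF match and 12.5% (11.5 to 13.5) a gene above 10 TPM in all mice, each below the identical boundaries. Per mouse, identical boundaries had 8.09 ± 0.48 more genes above 10 TPM per 100 positions than one-diet boundaries, higher in 10 of 10 mice (exact sign-flip permutation test, p = 0.00195; adjusted p = 0.00781 over 4 comparisons). H3K27ac peaks were at 44.5% ± 1.9 of the one-diet boundaries, 12.8 ± 0.3 points under the identical ones in 6 of 6 libraries (exact p = 0.0312, adjusted p = 0.0625). Hnf4α peaks were 11.9 ± 0.5 points and C/EBPα peaks 10.5 ± 0.9 points rarer there in 4 of 4 libraries each (exact p = 0.125, the smallest possible). The 1822 boundaries that missed an exact match by 10 kb or less stood in between for CTCF, at 36.6%, and H3K27ac, at 46.8% to 50.5% over the libraries. The 1312 over 20 kb from the other diet had a CTCF match at 26.8% and H3K27ac at 38.1% to 43.8%. CTCF matches pointed into the domain on their own side for 64.3% of those at one-diet boundaries and for 59.5% of those at the ones over 20 kb away.

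**Figure D5:**
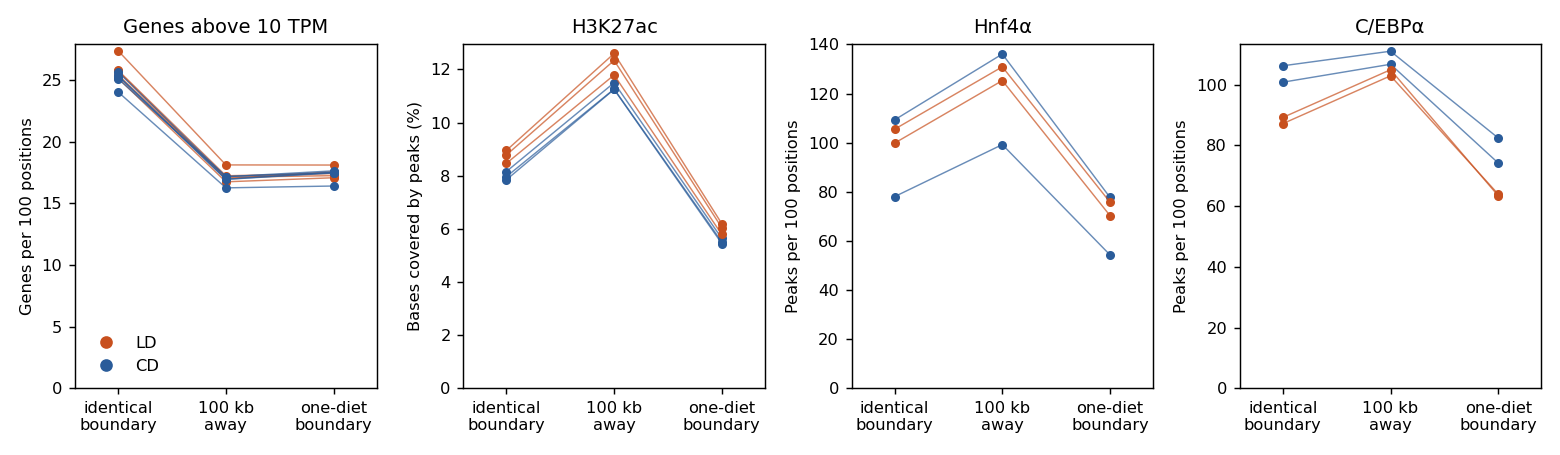
Genes above 10 TPM per 100 positions in each of 10 mice, share of bases covered by H3K27ac peaks in each of 6 libraries, and Hnf4α and C/EBPα peaks per 100 positions in each of 4 libraries, within 20 kb of identical boundaries, of positions 100 kb away and of one-diet boundaries. Each line joins the values of 1 library. Genes were highest at identical boundaries in every mouse, and ChIP peaks were highest 100 kb away and lowest at one-diet boundaries in every library.

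Between the diets, no difference in the share of identical boundaries with a peak passed an exact test, and the designs were too small to reach 0.05. H3K27ac peaks were present at 58.1%, 59.2% and 58.7% of the boundaries on LD and at 55.9%, 57.0% and 54.6% on CD, without overlap, a difference of 2.80 points (exact permutation test, two-sided, p = 0.1, the smallest that 3 against 3 allows; adjusted p = 0.222 over 4 comparisons). The H3K27ac lists held 53818 to 56983 peaks on LD and 48152 to 51605 on CD, and relative to the positions 100 kb away the difference was -0.39 points. C/EBPα peaks were present at 49.1% and 50.3% of the boundaries on LD and 58.9% and 61.6% on CD, and at 51.3%, 52.7%, 57.6% and 61.5% of the positions 100 kb away (exact p = 0.333 at the boundaries, the smallest possible). The C/EBPα lists held 38244 and 39270 peaks on LD and 41676 and 46328 on CD, and with the 10000 highest peaks of each library the LD minus CD difference was -1.45 points instead of -10.6. Hnf4α was at 51.3% and 50.4% on LD and 44.2% and 51.4% on CD, which overlapped (exact p = 1), and the difference was 0.313 points with the 10000 highest peaks instead of 3.06. Of 4597 H3K27ac loci within 20 kb of an identical boundary, 129 (2.81%, 2.37 to 3.32) were present in all LD and no CD libraries and 27 (0.587%) the reverse, against 3.13% and 0.757% of all loci. For Hnf4α, 7.94% of 3919 loci were LD-only and 4.54% CD-only, against 7.49% and 3.96% of all loci. For C/EBPα, 12.7% (11.6 to 13.9) of 3016 loci were LD-only and 5.27% CD-only, against 15.3% and 5.22%. Among loci at the positions 100 kb away, LD-only and CD-only shares were 2.67% and 0.654% for H3K27ac and 6.965% and 3.89% for Hnf4α. For C/EBPα they were 14.2% and 4.655%.

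The calls between the diets among genes at identical boundaries were counted beside those of all genes tested. Of 1961 genes tested with a TSS within 20 kb, edgeR's quasi-likelihood test (Benjamini-Hochberg adjustment) called 260 higher on LD (13.3%, 11.8 to 14.8), against 13.8% of all genes tested, and 184 higher on CD (9.38%, 8.17 to 10.8), against 11.1%. The difference in share was not tested, and genes at one-diet boundaries had 13.6% and 9.73%. The median log2 fold change of the tested genes, LD over CD, was 0.01, and its median size was 0.17, against 0.20 over all genes tested on the analysed chromosomes. Among the 855 above 10 TPM in all mice, 85 were called higher on LD and 88 higher on CD, or 9.94% and 10.3%, against 11.6% and 12.2% of all 5453 such genes.

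Ribosomal protein genes were the list with the most called members at identical boundaries. Of 23, 14 were called higher on CD by edgeR, as were 52 of the 78 above 10 TPM in all mice, with median log2 fold changes of -0.31 over the 23 and -0.31 over the 78, which include them. Rpl32 was at 701 ± 37.7 TPM on LD and 853 ± 62.6 on CD (log2 fold change -0.36 ± 0.08 SE, edgeR adjusted p = 0.00451). Ribosomal protein genes have many processed copies, and reads that could come from either were handled by the authors' counting. Of the 6 fatty acid oxidation genes at boundaries, 4 were called higher on LD, as were 17 of all 26. They included the short-chain dehydrogenase Acads at 232 ± 17.4 TPM on LD and 177 ± 10.7 on CD (edgeR adjusted p = 0.00918), the electron carrier Etfdh at 358 ± 33.2 and 274 ± 22.8 (adjusted p = 0.0158), and the regulator Ppara at 127 ± 14.1 and 95.0 ± 9.1 (adjusted p = 0.016). Without LD replicate 4 the fold of Etfdh fell under the threshold (log2 fold change 0.25), the only one of 14 other fits in which it lost its call. Of the 18 mitochondrial ribosomal proteins 1 was called, as were 2 of the 75 above 10 TPM in all mice: Mrpl16, higher on LD at 81.2 ± 9.5 against 59.1 ± 1.9 TPM (adjusted p = 0.00205), and of the 6 plasma proteins 2 were, the coagulation factor gene F11 and Hamp, both higher on CD, as were 28 of the 86 above 10 TPM in all mice. The P450 gene Cyp2d26, higher on LD, and the threonyl-tRNA synthetase gene Tars, higher on CD, were called as well, but lost the call in 4 and 7 of 14 other fits. Of the 40 P450 genes above 10 TPM in all mice, more were called higher on CD (12) than on LD (5). Among the 24 such tRNA synthetases, 2 were called higher on CD and 0 higher on LD.

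Of the 10 genes with the largest called changes at identical boundaries, 9 were higher on LD. All calls there numbered 260 higher on LD and 184 higher on CD. The largest changes of genes elsewhere were not counted, so that the direction cannot be called particular to boundaries. Gsta1, a glutathione transferase with close paralogs, was at 5.06, 7.46, 18.4, 21.0 and 35.3 TPM on LD and at 0.188, 0.279, 0.649, 0.135 and 0.789 on CD. The diets did not overlap (log2 fold change 5.27 ± 0.67 SE, edgeR adjusted p = 0.000517). Rad51b, of DNA repair, was at 14.8 ± 9.1 TPM on LD and 0.711 ± 0.308 on CD (log2 fold change 4.26 ± 0.52, adjusted p = 0.000495), with its TSS 1.73 kb from the boundary. The acute-phase gene Orm2 was at 59.9, 59.5, 123.2, 120.7 and 128.6 TPM on LD and 12.8, 9.43, 16.3, 7.67 and 11.7 on CD (log2 fold change 2.999 ± 0.303, adjusted p = 0.000143). The adhesion receptor Adgrv1 was at 3.06 ± 0.62 and 0.505 ± 0.069 TPM (2.52 ± 0.15, adjusted p = 2.59e-06), and the folate enzyme Mthfd1l at 2.93 ± 1.13 and 0.55 ± 0.09 (2.33 ± 0.26, adjusted p = 6.36e-05). The other genes higher on LD were Dtl, a substrate receptor of a ubiquitin ligase (2.24 ± 0.24), Ckap2, of the mitotic spindle (2.08 ± 0.33), the histone gene Hist1h3h, one of a family of near copies (2.04 ± 0.35), and the heme-binding Hebp2 (1.96 ± 0.34). Hamp, which encodes the iron hormone hepcidin, was the only one of the 10 higher on CD, at 1020, 950, 1416, 1511 and 1345 TPM against 299.8, 689.9, 155.9, 343.6 and 157.4 on LD (log2 fold change -1.98 ± 0.44, adjusted p = 0.0103). These 10 were chosen among called genes, so that their fold changes are a description.

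Among 25 identical boundaries with 3 or more highly expressed genes, 5 had 4 or more, and H3K27ac covered 42.8% to 59.5% of their windows as a mean over the libraries of a diet. Another 3 were taken from the 20 with exactly 3 such genes by their highest summed TPM, and coverage in these ranged from 15.5% to 82.5%, with 2 under 25%. The window chr17:24850000-24890000 (mm9) had 5 genes above 10 TPM, with the ribosomal protein gene Rps2 at 852 ± 35.0 TPM on LD and 918 ± 69.9 on CD, the complex I gene Ndufb10 at 338 ± 9.5 and 354 ± 15.7, the selenoprotein gene Msrb1 at 576 ± 46.9 and 566 ± 28.4, and the small nucleolar RNAs Snora78 and Snora64, both called higher on CD. H3K27ac covered 44.0% to 45.0% of it in the LD libraries and 43.0% to 45.0% in the CD libraries. At chr17:34960000-35000000, in the complement cluster, stood Cfb (804 ± 44.2 and 698 ± 36.6 TPM), Skiv2l, Nelfe and Dxo, and at chr11:69790000-69830000 the fatty acid oxidation gene Acadvl (450 ± 19.2 and 385 ± 13.8 TPM), the autophagy gene Gabarap (336 ± 16.1 and 272 ± 8.7), Elp5 and Phf23. All of these windows had H3K27ac in 6 of 6 libraries and both factors in 4 of 4.

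Of these 8 windows, 4 held at least 2 genes called in the same direction, all higher on CD, and a pair of them are described. In the others, small nucleolar RNAs were among the called genes. Of all 855 genes above 10 TPM at identical boundaries, 9.94% were called higher on LD and 10.3% higher on CD. The same count was not made for other windows, so that no bias between the diets can be read from it. At chr7:31720000-31760000, Hamp, the transcription factor gene Usf2 and the lipoprotein receptor gene Lsr were all called higher on CD. Usf2 was at 23.4 ± 1.8 TPM on LD and 26.9 ± 2.0 on CD (edgeR adjusted p = 0.0275), and Lsr at 90.0 ± 9.6 and 123 ± 10.5 (log2 fold change -0.53 ± 0.08 SE, adjusted p = 0.000412). H3K27ac covered 75.5%, 76.5% and 60.5% of this window on LD and 81.5%, 81.5% and 84.5% on CD, without overlap. At chr4:41670000-41710000, Galt, of galactose metabolism, was at 35.8 ± 2.2 and 43.2 ± 2.3 TPM, and the receptor gene Il11ra1 at 22.0 ± 3.2 and 28.1 ± 3.7, both called higher on CD (edgeR adjusted p = 0.00558 and 0.0163), and Dctn3, in the same window, was at 55.3 ± 1.3 and 49.8 ± 3.0 with no call. H3K27ac covered 42.5%, 46.0% and 39.99% there on LD and 45.5%, 48.5% and 49.99% on CD, which overlapped.

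Few genes and H3K27ac peaks stood at the 8 boundaries with the lowest separation scores. Of the 8, 5 had no TSS within 20 kb, 5 had no H3K27ac peak in any library, and 1 held a CTCF consensus match, the one on chromosome 10 printed above. The lowest score of all, -1.39 on LD and -1.35 on CD, was at chr10:7250000-7290000, with no TSS, CTCF match or peak of any kind. The highly expressed genes at these 8 were Api5, an inhibitor of apoptosis, at 44.9 ± 3.3 TPM on LD and 42.7 ± 3.0 on CD, and Pdcl at 17.2 ± 2.7 and 16.6 ± 1.4. Over all scored boundaries, TSS, H3K27ac and factor peaks were more frequent at higher scores, and CTCF matches had no such order. With the boundaries split into 4 equal groups from the lowest scores to the highest, the share with a TSS was 41.7%, 46.2%, 48.6% and 54.7%, and H3K27ac coverage was 4.98%, 6.76%, 8.66% and 13.1%. Hnf4α peaks numbered 63.1, 85.7, 101.7 and 141.8 per 100 boundaries and C/EBPα peaks 74.2, 87.3, 97.8 and 123.9. The share with a gene above 10 TPM in all mice was 16.4%, 15.3%, 18.03% and 23.0%, and that with a CTCF match 40.2%, 43.4%, 40.8% and 40.2%. Since the score is part of the calls that chose the boundaries, these values are a description.

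Promoter capture Hi-C from the same livers gave 151203 interactions on LD and 149798 on CD, built on the same Hi-C libraries. An identical boundary was spanned by 12.8 interactions on LD and 12.9 on CD in the mean, a position 100 kb away by 24.7 and 24.4, and a one-diet boundary by 10.9 and 10.9. Boundaries of either kind were called where contacts drop in these Hi-C libraries, so that fewer spanning interactions were built into the choice. The numbers are a description. Interaction ends lay within 20 kb of the boundary 13.1 times on LD and 12.7 times on CD, against 5.94 and 5.89 times at 100 kb and 8.21 and 7.98 times at one-diet boundaries. The captured ends are promoters, which are themselves denser at the boundaries, and this was not adjusted for.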

How the data were processed

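Group names follow the diet given in each sample's title (LD for HFD, CD for LFD). The authors aligned RNA-seq reads with STAR to mm9, counted them with featureCounts 1.5.0-p1 and deposited counts per RefSeq gene and TPM. For ChIP-seq, the deposited H3K27ac lists hold SICER peaks and those of the factors HOMER peaks with a height (signal scaled to a common library size), each called by the authors per sample. The authors called TADs with HiCExplorer on summed replicates in 10 kb bins, deposited with a separation score, and CHiCAGO interactions with a score. The TPM table also holds the authors' own comparison, which was not used. The 20 chromosomes other than Y were analysed.

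The identical boundaries, gene lists and tests were chosen with earlier results of these data known. Features were counted within 20 kb of each boundary and of positions 100 kb to either side, a TSS being the 5′ end of a RefSeq gene and a factor peak its midpoint. Libraries were compared by exact permutation tests, with Benjamini-Hochberg adjustment within each family, in Python 3.11.15 and scipy 1.17.1. Counts were tested with edgeR 4.0.16 (TMM, filterByExpr, quasi-likelihood, a call at an adjusted p under 0.05 and a fold above 1.2). Intervals are 95% Wilson or exact intervals. A locus was a merged peak of at least 2 samples. Genes named are the 10 most abundant and the 10 called genes of largest fold with separated diets and at least 1 TPM at boundaries, and boundaries named are the 8 with the most genes above 10 TPM (ties by summed TPM, a choice made after seeing the data) and the 8 of lowest score. The count test was tested on simulated data. Some items under the naming rule are not reported here. Alternatives, among them other windows and distances and the 10000 highest factor peaks of each library, are given beside the results and at the end.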

Additional observations from a re-analysis of the deposited data

Results flagged for a closer look

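In 5 of 46 groups of 4 or 5 samples, 1 sample stood apart from the others by Dixon's criterion, which chance meets in about 1 of 20 groups. LD replicate 5 had 27.37 genes above 10 TPM per 100 identical boundaries, above the other LD mice. CD replicate 1 had 16.26 per 100 positions 100 kb away and 16.41 per 100 one-diet boundaries, below the other CD mice in both. These mice had the most and the fewest genes above 10 TPM anywhere in the genome, 6568 and 5867. Bhmt was at 3773 TPM in LD replicate 1, and Car3 at 5466 TPM in the CD mouse whose column carries no replicate number of its group.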

How the results depend on the processing

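The excess of TSS and CTCF matches kept its direction in every setting tried. The TSS ratio was 1.30 against positions 50 kb away, 1.65 within 10 kb, 1.204 within 40 kb and 1.49 against positions over 40 kb from any boundary. The CTCF ratio was 2.07 at 50 kb, 2.07 at 200 kb, 2.80 within 10 kb, 1.93 within 40 kb, 2.82 against positions over 40 kb from any boundary and 1.35 with a looser consensus. The share of positions with H3K27ac turned higher at the boundary, by 0.653 points at 50 kb, 2.55 at 200 kb, 1.197 within 40 kb, 0.344 against positions over 40 kb from any boundary (exact p = 0.0938) and 1.11 in windows with a TSS. The Hnf4α share turned at 200 kb (0.552), and the C/EBPα share at 50 kb (0.450), 200 kb (2.05), within 10 kb (0.761), within 40 kb (0.287) and in windows with a TSS (0.749). With the 10000 highest peaks the shares were -5.80 for Hnf4α and -3.58 for C/EBPα, and LD minus CD was 0.313 and -1.45. The cause was not tested. Leaving out single libraries gave -1.18 to -1.04 points for the H3K27ac share and -3.45 to -3.38 for coverage, where 5 libraries allow no exact p under 0.0625. Relative to 100 kb away, the LD minus CD difference in H3K27ac was -0.387 points. CD-only Hnf4α loci made up 5.37% within 10 kb. With the replicate block, 257 genes were called higher on LD and 161 on CD. Same-numbered mice did not deviate together (correlations -0.13 to 0.23), so the numbers pair no samples. The block changed the call of Wfdc21 (log2 fold change -0.35, edgeR adjusted p = 0.0476) and Tars (-0.31, adjusted p = 0.0552). Leaving out a mouse gave 217 to 264 and 137 to 188 calls. Splitting windows by TSS, and H3K27ac coverage and peaks per 100 positions under other settings, were chosen after seeing the data.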

Other observations

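Neighbouring tested genes 20 to 200 kb apart were compared in their change between the diets. The log2 fold changes had Pearson r = 0.0879 over 1471 pairs with an identical boundary between them and 0.199 over 5157 pairs with no boundary of either diet between them. The pairs differed in distance, with medians of 96.3 and 52.2 kb. At 20 to 60 kb the values were 0.128 over 385 pairs and 0.174 over 2963, and at 60 to 200 kb 0.0738 over 1086 and 0.227 over 2194. Spearman's rho differed less, at 0.0542 and 0.123 over all distances and 0.0282 and 0.0934 at 60 to 200 kb. The share of pairs with the same sign at 60 to 200 kb was 51.4% and 51.5%. Pairs with only a boundary of one diet between them, 854 in all, had Pearson r = 0.173 and Spearman's rho = 0.0512. Their Pearson r was 0.243 at 20 to 60 kb and 0.156 at 60 to 200 kb. Pairs share genes and libraries, and the values are a description, with no test of their difference.

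None of a TSS, a CTCF match or a peak of any ChIP target stood within 20 kb of 234 identical boundaries (6.11%) and of 7.97% of the positions 100 kb away. Coordinates of 404 identical boundaries lay at a multiple of 5 kb between bins of 10 kb.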
